A study of Mus musculus with 2 samples.

Results

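MHC class II molecules present peptides from ingested material to CD4+ T cells. The 8 genes described here carry the main steps of that pathway: H2-Aa encodes the alpha chain and H2-Ab1 the beta chain of the class II molecule I-A, H2-Eb1 encodes the beta chain of I-E, Cd74 encodes the invariant chain that fills the groove of new molecules, Ctss encodes the protease cathepsin S that trims the invariant chain, H2-DMa and H2-DMb1 encode the peptide editor H2-DM, and Ciita encodes the transactivator that switches the set on. They were grouped by these roles, with earlier results of these data known, and they are 8 of the 32285 genes counted. Dendritic cells and B cells express the set constitutively and macrophages to a varying degree, whereas epithelial and endothelial cells can acquire it under interferon-gamma.

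Single cells were profiled from mouse kidney 14 days after ischemia-reperfusion injury, made by clamping 1 renal artery. One library came from control mice labelled Cre-, and the other from mice labelled Cdh5-CreERT2; Phd3f/+, in which an inducible Cre driven by the endothelial Cdh5 promoter acts on 1 floxed allele of Phd3 (Egln3), an oxygen-sensing prolyl hydroxylase. Both groups received 4 tamoxifen injections and share a batch label. The labels do not say whether the control carried the floxed allele, and they mention cell hashing but not how many animals each library pooled. With 1 library per group, no difference below has a replicate check. The intervals are 95% intervals that cover counting error only, and "apart" means that the exact Poisson intervals of the libraries did not overlap.

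The control library gave 8737 cells with a median of 8762 unique molecular identifiers (UMIs), and the haplodeficient library 9222 cells with a median of 5472. Among barcodes that passed the UMI and gene minimums, 30 occurred in both libraries. The libraries stood apart in makeup: leukocyte-like cells were 15.5% of the control and 41.7% of the haplodeficient cells, proximal-tubule-like cells were 33.7% and 3.35%, and the median mitochondrial share was 10.2% and 2.69%. In endothelial-like cells Egln3 itself stood at 24.5 CPM (UMIs scaled to a common total per class; 77 UMIs) in the control and 18.7 CPM (125 UMIs) in the haplodeficient library, a ratio of 0.763 (0.570 to 1.03). A 3' count outside the deleted part checks nothing about the deletion, and the labels do not give that part.

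Of the 8 genes, 5 lie on chromosome 17 between 34119541 and 34316674 (GRCm38): H2-DMa at chr17:34119541-34139101, H2-DMb1 at chr17:34153072-34160230, H2-Ab1 at chr17:34257689-34269419 and H2-Eb1 at chr17:34305867-34316674, all on the plus strand, and H2-Aa at chr17:34282744-34287823 on the minus strand. Ciita is at chr16:10480059-10528418 and Ctss at chr3:95526786-95556403. The antisense gene Gm20513 overlaps H2-Eb1 by 2204 bases. H2-DMb2 is a close copy of H2-DMb1, so the division of UMIs between these copies is uncertain.

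Class II promoters carry an X box and a Y box at a near-fixed spacing, the pair on which the RFX and NF-Y complexes recruit the transactivator. The 150 bases before the RefSeq start of 3 members are shown because they set class II chain genes, whose levels moved together across cell types, beside Ctss, which followed them less closely. Capitals mark GNAAC, the core of the X box, and the Y box ATTGG after it.
H2-Aa: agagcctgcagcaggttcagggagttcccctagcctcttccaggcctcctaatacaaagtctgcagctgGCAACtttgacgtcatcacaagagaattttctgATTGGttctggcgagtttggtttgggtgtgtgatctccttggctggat
H2-Eb1: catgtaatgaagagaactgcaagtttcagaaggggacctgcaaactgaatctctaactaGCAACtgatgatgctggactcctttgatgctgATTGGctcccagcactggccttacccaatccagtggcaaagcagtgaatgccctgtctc
Ctss: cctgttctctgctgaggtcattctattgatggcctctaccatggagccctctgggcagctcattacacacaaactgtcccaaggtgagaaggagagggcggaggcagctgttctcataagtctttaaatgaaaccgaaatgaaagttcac
These stretches are chr17:34287824-34287973 on the minus strand, chr17:34305717-34305866 on the plus strand and chr3:95526636-95526785 on the plus strand, from RefSeq on GRCm38. GNAAC followed on the same strand within 40 bases by ATTGG was found in the promoter windows (250 bases before to 50 after the start) of H2-Aa, H2-Eb1 and H2-DMb1, with 28, 27 and 28 bases between the motifs. In all, 3 of the 5 members examined held the pair, as did 3 of 4 further class II genes (H2-Oa, H2-Ob and H2-Eb2), against 5.96% of 32851 promoter windows. The members examined without the pair were Ctss and H2-DMa. Unlike Ctss, H2-DMa closely followed the mean of H2-Aa, H2-Ab1, H2-Eb1 and Cd74 across cell types (Pearson r = 0.978), so lacking the pair did not go with weaker likeness in both. Cd74 was left out of this count of members, and H2-Ab1 and Ciita had no window. GNAAC alone was in 84.8% of windows and ATTGG alone in 37.4%, with both strands searched; the letters were chosen with these sequences in view, and the match is a description.

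Class II RNA lay mainly in dendritic-like and macrophage-like cells. H2-Aa, H2-Ab1, H2-Eb1 and Cd74, which hold most class II UMIs, are summed below as the class II sum. Type 2 conventional dendritic-like cells (named by Cd209a, Mgl2 and related genes) had 43900 CPM of the class II sum in the control and 47526 CPM in the haplodeficient library. Type 1 conventional dendritic-like cells (Xcr1, Clec9a) had 32397 and 31472 CPM, and macrophage-like cells 32170 and 23418 CPM. Below these came cells named plasmacytoid-dendritic-or-B-like (10699 and 14965 CPM, from 13 and 43 cells), monocyte-like cells (3119 and 5409 CPM) and injured-tubule-like cells (2697 and 2835 CPM). These 6 classes kept the top places in both libraries, and neighbours in this order were separated by more than counting error, except type 1 conventional dendritic-like and macrophage-like cells of the control. The place of control monocyte-like above injured-tubule-like cells rested on 1 cell: without the highest cell of each class they had 1879 and 2653 CPM.

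The remaining classes stood at 1574 CPM or lower. Proximal-tubule-like cells had 491 CPM in the control and 1574 CPM in the haplodeficient library, and descending-thin-limb-like cells 595 and 387 CPM. Endothelial-like cells had 283 and 538 CPM, and thick-ascending-limb-like cells 118 and 180 CPM. Single cells carried some of these values: 1 control cell held 88.4% of the class II UMIs of fibroblast-like cells and 1 control cell held 70.7% in T-cell-like cells. Without those cells the control levels were 96.9 CPM in place of 789 CPM in fibroblast-like cells and 103 CPM in place of 350 CPM in T-cell-like cells. In the haplodeficient library, without its own highest cell, these classes stood at 158 and 156 CPM.

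**Figure D1:**
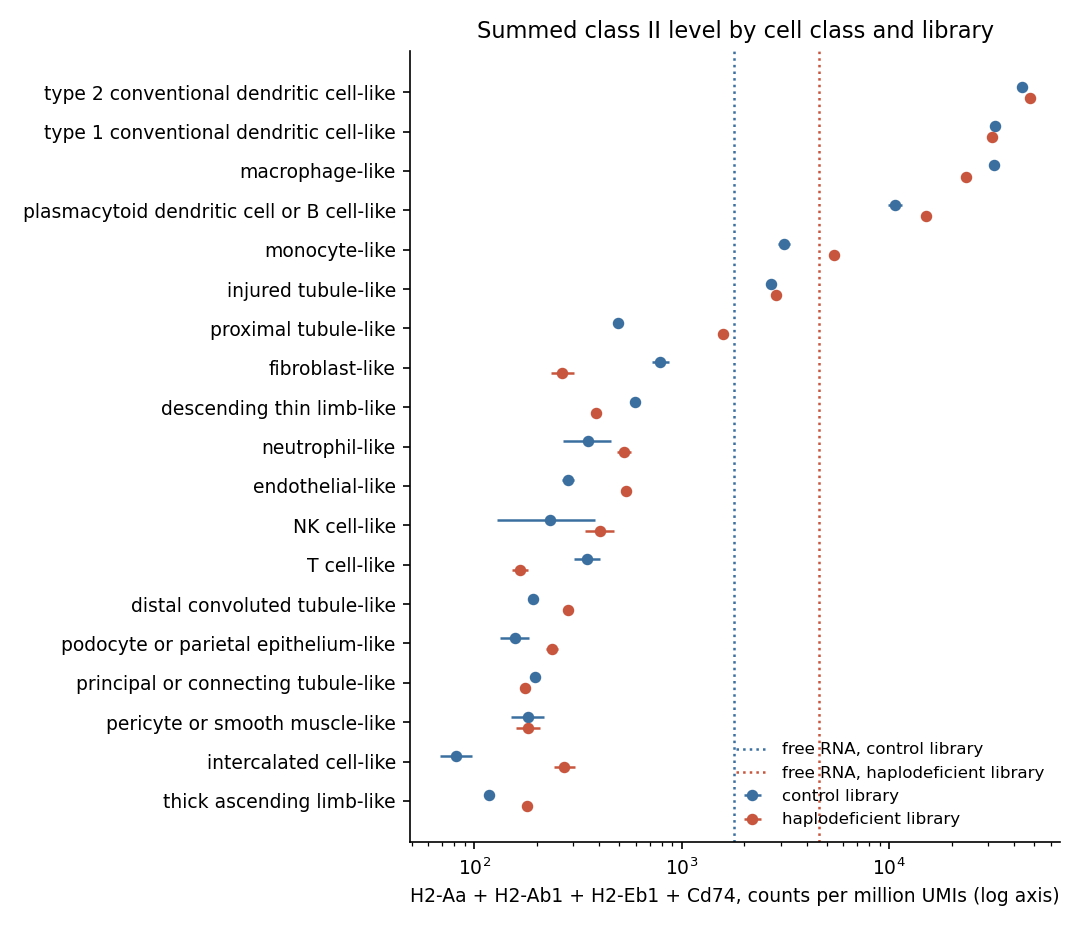
Class II sum (H2-Aa, H2-Ab1, H2-Eb1 and Cd74; CPM, log axis) in each cell class of the control and the haplodeficient library; bars are exact Poisson intervals and dotted lines the level in free RNA. Type 2 conventional dendritic-like cells sit highest at 43900 and 47526 CPM, and macrophage-like cells at 32170 and 23418 CPM.

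Most class II UMIs of each library came from leukocyte-like cells: 80.05% (79.9 to 80.2) for the control and 90.6% (90.5 to 90.7) for the haplodeficient library. Macrophage-like cells alone supplied 58.0% and 60.7%, and type 2 conventional dendritic-like cells 14.8% and 20.5%. Injured-tubule-like cells supplied 9.21% of the control UMIs and 3.51% of the haplodeficient ones, and proximal-tubule-like cells 6.58% and 1.53%. Ctss was almost confined to leukocyte-like cells, with 96.3% and 97.8% of its UMIs there, and 84.4% and 81.5% in macrophage-like cells. Ciita was spread more widely: leukocyte-like cells held 74.3% of its control UMIs and 87.7% of its haplodeficient UMIs.

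Over all cells the class II sum was 2607 CPM in the control and 4194 CPM in the haplodeficient library, a ratio of 1.61 (1.60 to 1.62). Among single genes, the ratio over all cells ran from 1.31 (1.21 to 1.42) for Ciita to 3.06 (3.01 to 3.11) for Ctss. Makeup and level per class were then exchanged by calculation. With the haplodeficient shares of UMIs per class and the control level in each class, the class II sum would be 4971 CPM, 1.91 times the control value. With the control shares and the haplodeficient levels it would be 2629 CPM, 1.01 times the control value.

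In macrophage-like cells (803 in the control, 1359 in the haplodeficient library), the class II chains, the editor and the transactivator were lower in the haplodeficient library and the protease was higher. The chain genes H2-Aa and H2-Ab1 stood at 5952 and 5523 CPM in the control and 4093 and 3805 CPM in the haplodeficient library, ratios of 0.688 (0.677 to 0.698) and 0.689 (0.678 to 0.700). H2-Eb1 differed less, with 6241 CPM in the control and 5093 CPM in the haplodeficient library, a ratio of 0.816 (0.805 to 0.828). The invariant chain gene Cd74 had 14453 CPM in the control and 10428 CPM in the haplodeficient library (0.722, 0.715 to 0.728). All 4 were apart between the libraries and lower in the haplodeficient one.

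Ciita, the transactivator, had the lowest ratio of the 8 in these cells, 0.624 (0.551 to 0.707), with 92.1 CPM (463 UMIs) in the control and 57.5 CPM (585 UMIs) in the haplodeficient library. The editor genes H2-DMa and H2-DMb1 had 446 and 440 CPM in the control and 338 CPM each in the haplodeficient library. Ctss moved the other way, with 2988 CPM in the control and 3819 CPM in the haplodeficient library, a ratio of 1.28 (1.25 to 1.30). In all, 7 of 8 members were apart and lower, where 27.8% of 2748 genes with enough UMIs (30 or more, and 50 CPM or more on average) in macrophage-like cells were. The members' median log2 ratio was -0.43, against -0.0034 over those genes.

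Macrophage-like cells were not uniform in class II. The Ccl8/Mrc1-led cluster had a class II sum of 56967 CPM in the control and 50664 CPM in the haplodeficient library, and the Ccl12/Ccl7-led cluster 47351 and 53655 CPM. The Gpnmb-led cluster, whose leading genes Gpnmb, Fabp5 and Trem2 mark lipid-associated macrophages, had 12392 and 7186 CPM. Of control macrophage-like cells 23.2% lay in that cluster, and of haplodeficient ones 34.9%. The Ccl12/Ccl7-led cluster held 47.3% and 36.3%, and the Ccl8/Mrc1-led one 17.9% and 10.0%. A Ccl4/Il1a-led cluster (42887 and 30753 CPM) and a shallow Aif1/Cd72-led cluster (29944 and 33114 CPM, medians of 776 and 806 UMIs per cell) made up the rest.

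**Figure D2:**
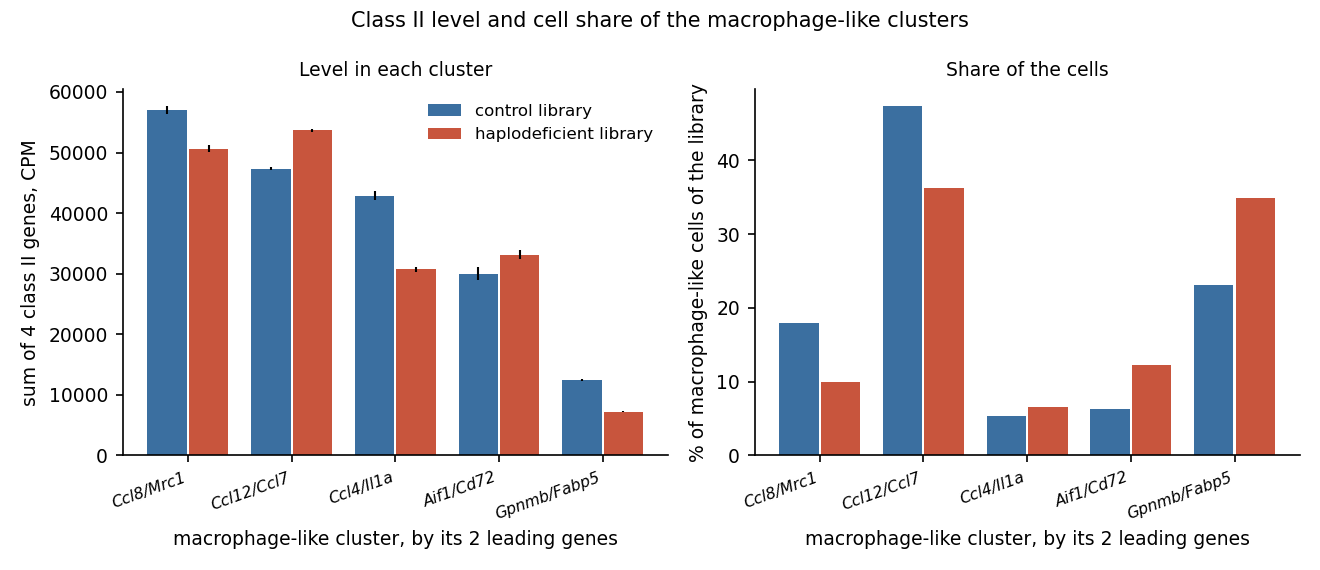
Class II sum in CPM (left, bars with exact Poisson intervals) and share of macrophage-like cells in percent (right) for each macrophage-like cluster, named by its leading genes, in both libraries. The Gpnmb-led cluster has the lowest level, 12392 and 7186 CPM, and a share of 23.2% (control) and 34.9% (haplodeficient).

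The lower class II sum of macrophage-like cells was not seen when the Gpnmb-led cluster was left out, but the other clusters differed in both directions. The Ccl8/Mrc1-led and Ccl4/Il1a-led clusters were lower in the haplodeficient library, and the Ccl12/Ccl7-led and Aif1/Cd72-led clusters were higher. Without it, the class II sum was 48101 CPM in the control and 47864 CPM in the haplodeficient library, a ratio of 0.995 (0.988 to 1.00), and the members' median log2 ratio was 0.0011. With each cluster weighted by its mean share of cells in both libraries, the ratio of the class II sum was likewise 0.995. The class value instead weights clusters by their UMIs. Cells of the Gpnmb-led cluster were deep (median 10824.5 UMIs), so weighting by cells also gave that cluster less weight. The ratio at equal shares of UMIs was not computed. Within the Gpnmb-led cluster the class II sum was lower in the haplodeficient library, with a ratio of 0.580 (0.571 to 0.589), and H2-Aa, Cd74, Ciita and H2-DMb1 had ratios of 0.574, 0.541, 0.429 and 0.541. Both a larger share of that cluster and a lower level in it thus entered the class value.

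Outside the Gpnmb-led cluster H2-Eb1, H2-DMb1 and Ctss were higher in the haplodeficient library, although H2-Eb1 and H2-DMb1 were lower over all macrophage-like cells. Without that cluster H2-Eb1 had a ratio of 1.10 (1.08 to 1.11), H2-DMb1 of 1.09 (1.02 to 1.16) and Ctss of 1.32 (1.28 to 1.36), while H2-Aa stood at 0.932 (0.916 to 0.947) and H2-Ab1 at 0.935 (0.919 to 0.951). Ctss was also higher within the Gpnmb-led cluster, at 1.14 (1.11 to 1.17), where every other member was lower. At a finer clustering, the Gpnmb-led cells split into a pair of clusters with class II sums of 5364 and 5864 CPM in the control and 3626 and 4219 CPM in the haplodeficient library, beside a Mmp12/Arg1-led cluster with 15644 and 11686 CPM. All 3 were lower in the haplodeficient library.

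Thinning each macrophage-like cell to 1000 UMIs showed where the cells differed (762 control and 1240 haplodeficient cells were deep enough; 41 and 119 were left out). Cells with no UMI of the class II sum made up 6.96% (5.25 to 8.999) of the control cells and 18.2% (16.1 to 20.5) of the haplodeficient ones. Cells with 10 or more were 84.4% (81.6 to 86.9) and 66.9% (64.2 to 69.5). The median was 47 UMIs for the control and 36 for the haplodeficient library, whereas the 75th percentile was 61 in both and the 90th was 75 and 76. The libraries thus differed in the share of cells at the low end. A class that should lack class II, thick-ascending-limb-like cells, had at least 1 such UMI in 5.91% of control and 8.72% of haplodeficient thinned cells, at median depths of 11834 and 10269 UMIs against 4898 and 5500 UMIs in macrophage-like cells. Unthinned, H2-Aa was found in 92.3% of control and 80.6% of haplodeficient macrophage-like cells.

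**Figure D3:**
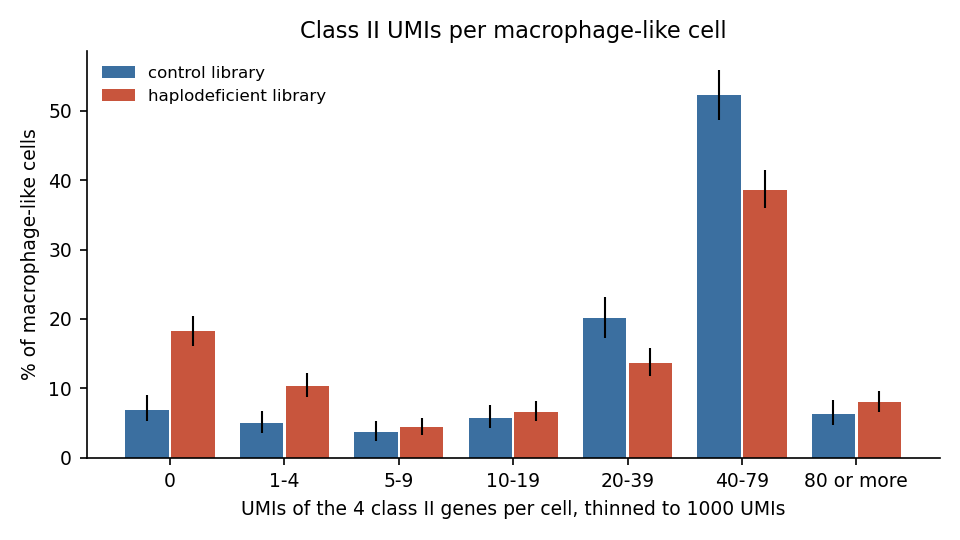
Percent of macrophage-like cells by their UMIs of the class II sum after thinning to 1000 UMIs per cell, in both libraries; error bars are exact binomial intervals. Cells with 0 UMIs are 6.96% of the control and 18.2% of the haplodeficient cells.

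Conventional dendritic-like cells kept a high level in both libraries, and most members were slightly higher in the haplodeficient one. Over both types (180 control and 279 haplodeficient cells), H2-Eb1 had 7901 CPM in the control and 9200 CPM in the haplodeficient library (1.16, 1.14 to 1.19), and Cd74 had 16770 and 18392 CPM (1.10, 1.08 to 1.11). H2-Aa overlapped between the libraries, at 7763 and 7660 CPM, and H2-Ab1 stood at 7108 and 7440 CPM. H2-DMa had 827 CPM in the control and 915 CPM in the haplodeficient library, and H2-DMb1 567 and 670 CPM. Ciita had 232 CPM (351 UMIs) and 200 CPM (484 UMIs), which overlapped. Ctss had the highest ratio, 1.42 (1.34 to 1.50), with 1172 CPM in the control and 1658 CPM in the haplodeficient library. So 6 of 8 members were apart and higher, against 14.5% of 2894 genes with enough UMIs. Their median log2 ratio was 0.14, and that of those genes was -0.08. Over the alternatives tried, the members' median ran from 0.12 to 0.22.

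The types differed. In type 1 conventional dendritic-like cells H2-Aa and H2-Ab1 were lower in the haplodeficient library, with 6522 and 6216 CPM in the control and 5905 and 5584 CPM in the haplodeficient library, while H2-Eb1 was higher (6422 and 6907 CPM). In type 2 cells 5 members were apart and higher and none lower. Ctss separated the types most: 411 and 510 CPM in type 1 cells against 1636 and 2153 CPM in type 2 cells. Every one of the 119 control type 2 cells deep enough for thinning kept a UMI of H2-Aa, and Ciita was found in 26.1% of them and in 17.9% of 207 haplodeficient ones.

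Monocyte-like cells (55 in the control, 379 in the haplodeficient library) had more class II RNA in the haplodeficient library. H2-Aa had 643 CPM in the control and 931 CPM in the haplodeficient library, H2-Ab1 536 and 796 CPM, and H2-Eb1 430 and 848 CPM, ratios of 1.45 (1.23 to 1.71), 1.48 (1.24 to 1.78) and 1.97 (1.62 to 2.42). Cd74 had 1510 and 2834 CPM (1.88, 1.69 to 2.09), and Ctss 982 and 1511 CPM (1.54, 1.35 to 1.76). The editor genes overlapped, at 130 and 146 CPM for H2-DMa and 106 and 110 CPM for H2-DMb1, and Ciita rested on 3 and 31 UMIs. Of the 7 members with enough UMIs 5 were apart and higher, against 8.23% of 3246 genes.

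A few cells weighed on the control value: 1 cell held 41.8% of the control class II UMIs of this class, and without the highest cell of each library the class II sum was 1879 CPM in the control and 5094 CPM in the haplodeficient library. The members' median log2 ratio was 0.57 with these cells and 1.09 without them, and 0.15 with cells limited to 25% mitochondrial UMIs. By cluster, the Adgre4/Ace-expressing cells had 732 CPM in the control and 2868 CPM in the haplodeficient library (48 and 306 cells). The Chil3/Ly6c2-led cells, whose leading genes mark classical monocytes, had 15147 and 13866 CPM, but from only 7 control and 73 haplodeficient cells.

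Endothelial-like cells, the class that the Cre targets, held 38.5 CPM of H2-Aa (121 UMIs) in the control and 89.8 CPM (600 UMIs) in the haplodeficient library, a ratio of 2.33 (1.91 to 2.86). H2-Ab1 had 56.1 and 90.6 CPM, H2-Eb1 51.3 and 99.4 CPM (1.94, 1.63 to 2.32), and Cd74 137 and 259 CPM (1.88, 1.69 to 2.10). These 4 members had enough UMIs, and all 4 were apart and higher, against 18.3% of 3773 genes. The members' median log2 ratio was 0.89 and that of those genes -0.02. H2-Aa, at 38.5 CPM in the control, was below the mean level needed to be counted. It was counted only through the haplodeficient library, where it was high. The count of 4 thus rested partly on a gene that this rule favours when it is higher. H2-Ab1, H2-Eb1 and Cd74 were above that level in both libraries. Ciita stood at 3.82 and 4.04 CPM, H2-DMa at 15.3 and 20.1 CPM, H2-DMb1 at 18.2 and 22.0 CPM and Ctss at 6.05 and 11.8 CPM, all overlapping.

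Within the endothelial class the Kdr/Plvap/Ehd3-expressing cluster, of capillary genes, had a class II sum of 651 CPM in the control and 970 CPM in the haplodeficient library. The Cldn5/Sox17-led cluster, of arterial genes, had 133 and 179 CPM. The capillary-gene cluster held 161 of 403 control cells and 443 of 865 haplodeficient cells. In cells with no UMI of Ptprc, the pan-leukocyte gene, the class II sum was 286 CPM and 522 CPM. After thinning, Cd74 was found in 11.4% of control and 21.3% of haplodeficient endothelial-like cells, against 2.90% and 5.91% of thick-ascending-limb-like cells; unthinned, in 29.5% and 39.3% of endothelial-like cells, whose median depths were 4655 and 4318 UMIs.

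Free RNA moved with this result. In barcodes of 1 to 100 UMIs, which hold free RNA, the class II sum was 1778 CPM in the control and 4592 CPM in the haplodeficient library, a ratio of 2.58 (2.53 to 2.64). In endothelial-like cells the 4 chain and invariant-chain genes stood at 0.124 to 0.179 times their free-RNA level (control) and 0.0948 to 0.129 times (haplodeficient). Leukocyte reference genes that endothelial cells should lack (Tyrobp, Lyz2, Ptprc and the like) had medians of 0.0581 and 0.0308 on that scale and highest values of 0.378 (Ptprc) and 0.115 (Cd53). With the free RNA expected from markers of other classes subtracted, only 1 member kept enough UMIs, with a log2 ratio of 0.64. The part of free RNA in the endothelial difference was not tested.

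**Figure D4:**
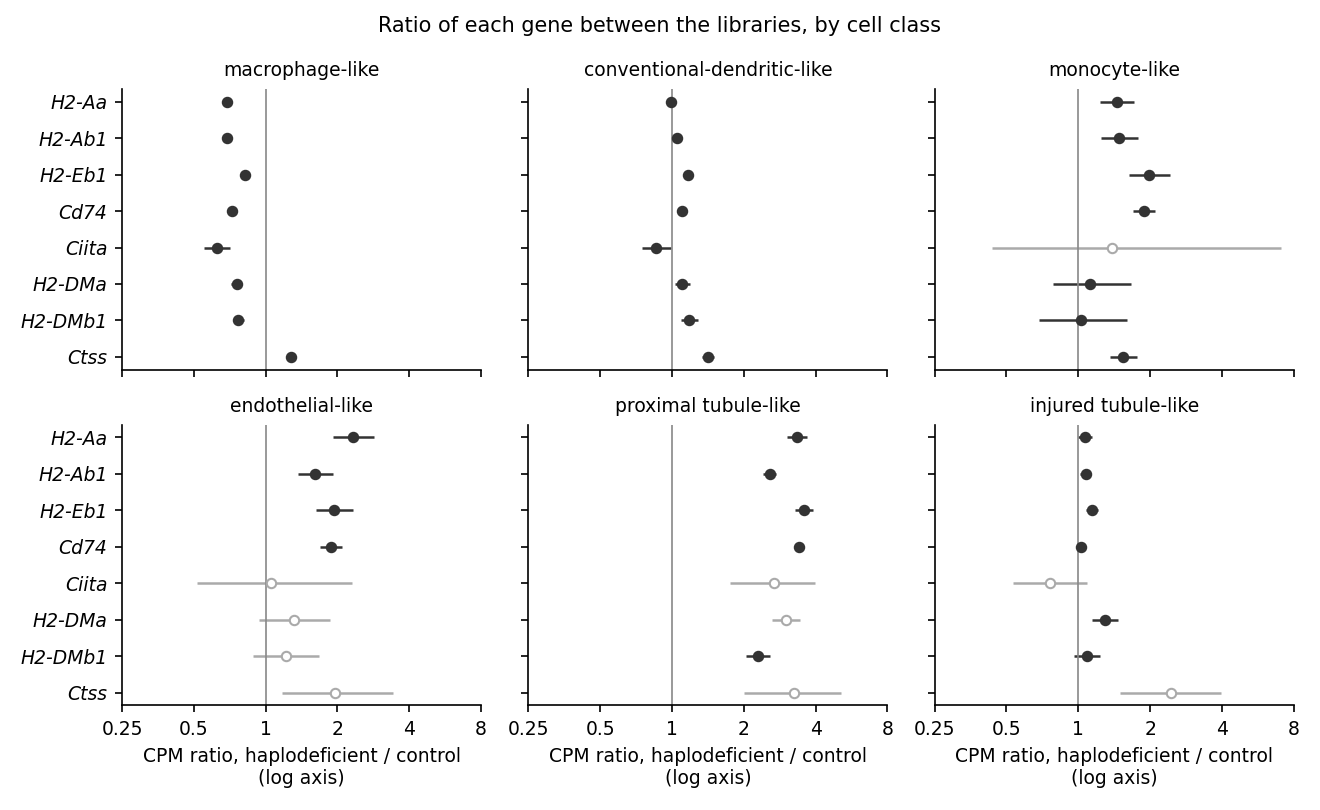
Ratio of CPM, haplodeficient over control (log axis), of the 8 genes in 6 cell classes, with exact conditional binomial intervals; filled points are genes with enough UMIs in the class. Macrophage-like cells hold 7 members below 1 and Ctss at 1.28, and the 5 filled points of proximal-tubule-like cells lie between 2.30 and 3.57.

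Injured-tubule-like cells, led by Havcr1 (kidney injury molecule 1) and Vcam1, carried the most class II RNA of any class outside the leukocytes, and the libraries were close. Cd74 had 1620 CPM in the control and 1659 CPM in the haplodeficient library (1.02, 0.996 to 1.05), and H2-Aa 263 and 281 CPM, both overlapping. H2-Ab1 stood at 474 and 508 CPM, H2-Eb1 at 340 and 387 CPM and H2-DMa at 66.3 and 85.7 CPM, each apart and higher in the haplodeficient library. H2-DMb1 overlapped, at 73.8 and 79.9 CPM. That made 3 of 6 members with enough UMIs, against 32% of 3427 genes. Their median log2 ratio was 0.10, and it ran from 0.047 to 0.24 over the alternatives tried. Ciita was at 12.4 CPM (118 UMIs) and 9.47 CPM (46 UMIs), and Ctss at 3.47 and 8.44 CPM.

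Class II UMIs in this class were not limited to cells with leukocyte transcripts. Without the 7 cells in each library that had a Ptprc UMI, the class II sum was 2660 CPM in the control and 2762 CPM in the haplodeficient library. After thinning, 73.2% of 635 control cells and 80.2% of 324 haplodeficient cells had at least 1 UMI of the class II sum. Against free RNA, 7 of 8 members stood above every leukocyte reference gene in both libraries. Control values ran from 0.846 for H2-Aa to 2.32 for Ciita, and haplodeficient values from 0.356 for H2-Aa to 0.951 for H2-DMb1, whereas the highest reference gene was at 0.0869 and 0.0371. Ctss was the exception, at 0.0360 and 0.0195, within the range of the reference genes.

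The proportions of the members in injured-tubule-like and proximal-tubule-like cells also differed from those in macrophage-like cells. Cd74 UMIs were 6.16 (5.91 to 6.43) times H2-Aa UMIs in control injured-tubule-like cells and 5.90 (5.57 to 6.25) times in haplodeficient ones. In proximal-tubule-like cells they were 5.59 and 5.70 times, against 2.43 and 2.55 times in macrophage-like cells and 2.47 and 2.53 times in free RNA. The proportion varied among the other tubule classes. It was 3.09 and 3.11 in thick-ascending-limb-like and 3.02 and 3.94 in distal-convoluted-tubule-like cells. In principal-or-connecting-tubule-like cells it was 4.32 and 7.56, and in descending-thin-limb-like cells 8.28 and 6.47. H2-Ab1 likewise was 1.80 and 1.81 times H2-Aa in injured-tubule-like cells and 0.928 and 0.930 times in macrophage-like cells. Ctss was nearly missing in both tubule classes. Another protease of the pathway, cathepsin L (Ctsl), stood at 1585 and 1544 CPM in injured-tubule-like and 818 and 983 CPM in proximal-tubule-like cells. Ctsl was not particular to them, since macrophage-like cells held it at levels within or above this range, given below. H2-DMb2, the copy of H2-DMb1, had 54.6 and 46.1 CPM in injured-tubule-like cells but 5.97 and 4.52 CPM in macrophage-like cells.

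**Figure D5:**
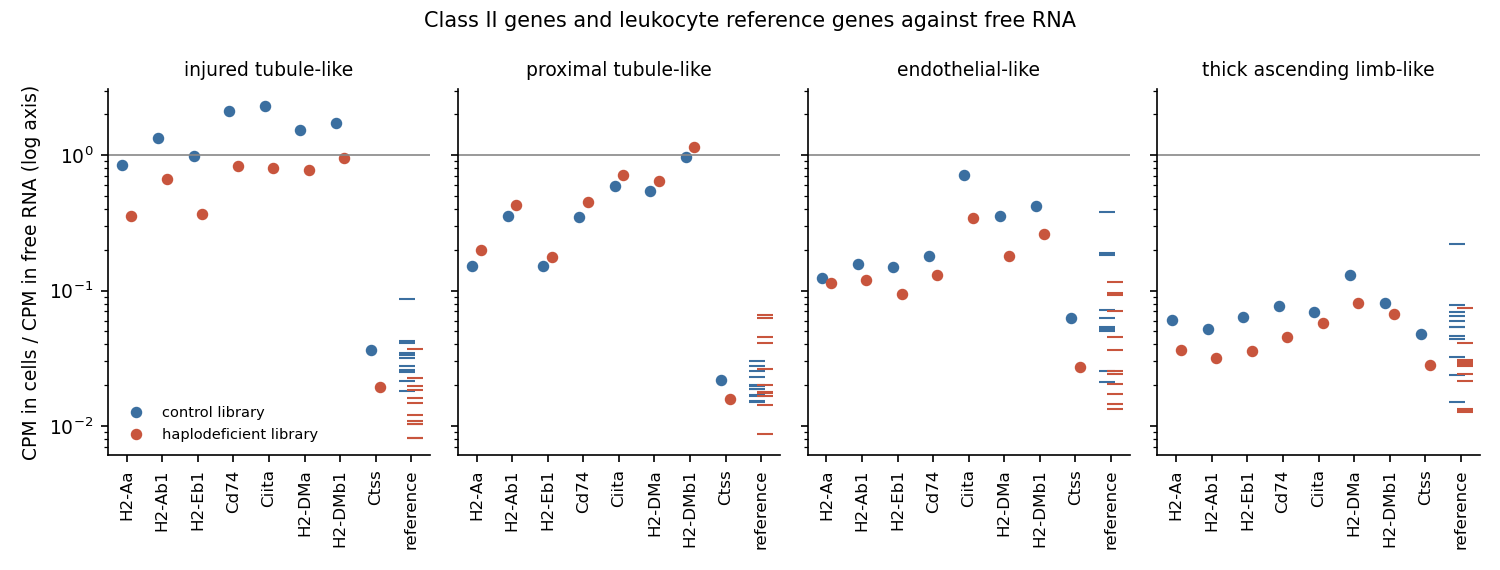
Level of each member in 4 non-leukocyte classes divided by its level in free RNA (log axis), in both libraries; dashes are leukocyte reference genes. In injured-tubule-like and proximal-tubule-like cells 7 of 8 members lie above every reference gene, and Ctss lies among the reference genes.

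Proximal-tubule-like cells (2944 in the control, 309 in the haplodeficient library) had more class II RNA in the haplodeficient library. H2-Aa had 47.5 CPM in the control and 159 CPM in the haplodeficient library (3.34, 3.04 to 3.67), H2-Ab1 126 and 323 CPM (2.57, 2.41 to 2.73), and H2-Eb1 52.3 and 187 CPM (3.57, 3.27 to 3.89). Cd74 had 266 and 905 CPM (3.41, 3.27 to 3.54) and H2-DMb1 41.8 and 96.1 CPM (2.30, 2.05 to 2.58). H2-DMa (23.6 and 71.0 CPM), Ciita (3.14 and 8.38 CPM) and Ctss (2.09 and 6.81 CPM) were below the level needed to be counted and were higher too. All 5 counted members were apart and higher, but so were 54.6% of 2987 genes in this class, whose median log2 ratio was 0.21. The members' median log2 ratio was 1.64, and all 5 exceeded a ratio of 2, which 1.74% of those genes did. H2-Aa and H2-DMb1 were below 50 CPM in the control and were counted only through the haplodeficient library, where they were high. The count of 5 and the median thus rested partly on genes that this rule favours when they are higher. H2-Ab1, H2-Eb1 and Cd74 were above 50 CPM in both libraries. In intercalated-like cells (163 and 107 cells), Cd74, the member counted there, had 63.5 CPM in the control and 215 CPM in the haplodeficient library. Its ratio was 3.39 (2.67 to 4.32), and that of Cd74 in free RNA was 2.60 (2.52 to 2.69). Against free RNA it stood at 0.0828 (control) and 0.108 (haplodeficient), where the highest leukocyte reference gene was at 0.0415 and 0.113. The part of free RNA in this ratio was not tested.

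Each of the 4 proximal-tubule-like clusters had the same direction. The clusters led by Spp2 had class II sums of 586 and 425 CPM in the control and 1884 and 1751 CPM in the haplodeficient library. Those with Slc7a13, a late-segment gene, among their leading genes had 422 and 332 CPM in the control and 621 and 817 CPM in the haplodeficient library, the last from 16 cells. After thinning, 74.9% of control and 42.0% of haplodeficient cells had no UMI of the class II sum. In cells without a Ptprc UMI the class II sum was 483 and 1516 CPM. The median mitochondrial share of the class moved with this result, at 23.1% and 7.42%. With mitochondrial genes left out of the total the median log2 ratio was 1.45, and with cells limited to 25% mitochondrial UMIs it was 1.16.

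The other genes of the pathway did not follow the members as a block. In macrophage-like cells 6 of 8 genes of invariant-chain and antigen processing were apart and higher in the haplodeficient library and none lower, where 26.6% of all counted genes were apart and higher and 27.8% apart and lower. Among them were Ctsl (871 and 1667 CPM), Ctsd, a lysosomal aspartic protease (2661 and 3863 CPM), and Ifi30, a thiol reductase (511 and 741 CPM). All 3 counted genes of class II turnover were lower, namely March1, a ubiquitin ligase of class II (99.7 and 69.7 CPM), Cd83 (892 and 704 CPM) and Il10ra (127 and 104 CPM). The costimulator Cd86 was lower (669 and 455 CPM), as were 2 of 3 interferon-gamma pathway genes, Ifngr1 (249 and 200 CPM) and Jak1 (271 and 170 CPM). Among the transcription genes, Irf1 was higher (99.7 and 134 CPM), and Spi1 and Irf8 overlapped. All these values are over the whole macrophage-like class, whose cluster shares differed between the libraries. Cd83 and Cd86 were among the leading genes of the Ccl12/Ccl7-led cluster, whose share was lower in the haplodeficient library. The part of cluster makeup in these values was not tested.

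Conventional dendritic-like cells showed a like division. Processing genes were higher for 5 of 8, with Ifi30 at 598 and 1056 CPM and Ctsz at 575 and 894 CPM, and Sppl2a, which cleaves the last invariant-chain fragment, was lower (133 and 101 CPM). The H2-DM inhibitors H2-Oa (169 and 124 CPM) and H2-Ob (112 and 74.8 CPM) were lower. So were Cd80 (200 and 143 CPM), Cd86 (783 and 550 CPM), Ifngr1, Jak1 and Jak2. Of all counted genes in these cells, 14.5% were apart and higher and 22.4% apart and lower.

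Over 17 classes with at least 50 cells in both libraries, 7 members followed the mean of H2-Aa, H2-Ab1, H2-Eb1 and Cd74 more closely than any other of 8598 genes compared, with Pearson r over 34 class-by-library points from 0.959 for H2-DMb1 upward. The points share libraries, and 4 members are part of the mean. Ctss ranked 66 with r = 0.794. The most alike genes outside the members were Slamf8 (0.924), Gm20513, the antisense neighbour of H2-Eb1 (0.919), Arhgap22 (0.913), Amz1 (0.910) and Cd83 (0.907). Slamf8, a receptor of the SLAM family found on myeloid cells, had 48.3 and 47.5 CPM in macrophage-like cells.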

How the data were processed

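The deposited matrices hold raw UMI counts of genes in barcodes from Cell Ranger 4, per the file headers, on mm10 per the submitters' processing notes; the kit was a 10x 3' kit per the labels' protocols. The deposited totals were 134190236 UMIs over 1342632 barcodes (control) and 114668145 over 1430043 (haplodeficient). Barcodes with at least 500 UMIs, 200 genes and at most 50% mitochondrial UMIs were kept (574 and 30 removed by the last limit), and 715 and 804 doublets were removed by a Scrublet-type score at 0.8% per 1000 cells. Cells were clustered with scanpy 1.11.5 and leidenalg 0.10.2 (2000 variable genes without class II genes, 30 components, 15 neighbours, resolution 1), leukocytes again on their own, and clusters were called X-like from at least 3 markers; 3.19% and 2.74% of cells stayed unnamed, so class names are rebuilt. UMIs were summed per class and library and given as CPM. A gene was counted in a class when its libraries averaged 50 CPM or more and it had 30 or more UMIs; 5 CPM was added before log2. Intervals are exact Poisson, Clopper-Pearson or conditional binomial, and the interval code was tested on simulated data. All 8 members were named, other genes from lists or as the 5 most alike; the members and lists were chosen with earlier results of these data known. Symbols and positions came from GENCODE M21, which held 32158 of 32285 identifiers. H2-Ea was not analysed here, and 1 listed gene is not reported here. Alternative filters, clusterings, scalings and removal of free RNA were run.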

Additional observations from a re-analysis of the deposited data

Results flagged for a closer look

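The class II sum differed between the libraries in opposite directions in different cell classes. Its ratio, haplodeficient over control, was 0.728 in macrophage-like cells. It was 1.73 in monocyte-like, 1.08 in type 2 conventional dendritic-like, 1.90 in endothelial-like and 3.20 in proximal-tubule-like cells. Only these selected classes were screened. Macrophage-like cells were not the only class with a lower value: descending-thin-limb-like cells had 595 CPM in the control and 387 CPM in the haplodeficient library. The difference between classes was not tested, since each group has 1 library.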

How the results depend on the processing

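No paired analysis was possible because each group has 1 library, and for the same reason no replicate could be left out. Of 433 values recomputed under an alternative, 408 kept the sign of the reported value. In macrophage-like cells the median log2 ratio of the members ran from -0.47 to 0.0011. It was -0.0078 with the same cluster weights, by share of cells, in both libraries and 0.0011 without the Gpnmb-led cluster. These same settings turned 3 members: H2-Eb1 to 0.15 and 0.13, H2-DMa to 0.0083 and 0.0037 and H2-DMb1 to 0.071 and 0.12. Leaving out 1 cluster and the highest cell of each library, and re-clustering leukocytes more finely, were chosen after seeing the data.

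For conventional dendritic-like cells the median was 0.22 with median-of-ratios scaling and 0.21 at resolution 2 over all cells or over leukocytes alone. For endothelial-like cells it was 0.64 with free RNA subtracted. For monocyte-like cells it was 1.09 without the highest cells, 0.15 with a mitochondrial limit of 25% and 0.86 with doublets kept. For injured-tubule-like cells it was 0.24 with that limit. For proximal-tubule-like cells it was 1.44 with median-of-ratios scaling, 1.45 without mitochondrial genes, 1.60 without the highest cells, 1.45 at resolution 2, 1.50 with all genes in the clustering, 1.29 with a minimum of 1000 UMIs, 1.16 with the 25% limit and 1.48 with doublets kept. The ratio over all cells was 1.44 without mitochondrial genes, 1.58 with 1000 UMIs, 1.37 with the 25% limit and 1.59 with doublets kept; the leukocyte-like share under the last 3 settings was 79.8%, 80.8% and 77.8% in the control and 89.9%, 90.0% and 88.1% in the haplodeficient library. The cause of these shifts was not tested. Depth limits Ciita most: it rests on 3 UMIs in control monocyte-like cells and 12 in control endothelial-like cells.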

Other observations

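H2-Eb1 stood higher relative to H2-Aa in the haplodeficient library in most cell classes, but beyond counting error only in leukocyte-like ones. The UMI ratio of H2-Eb1 to H2-Aa was 1.05 in control and 1.24 in haplodeficient macrophage-like cells, a fold of 1.19 (1.16 to 1.21). In type 1 conventional dendritic-like cells it was 0.985 and 1.17, and in type 2 cells 1.03 and 1.21. Free RNA had 1.11 and 1.33, a fold of 1.19 (1.11 to 1.28). The fold was above 1 in 12 of the 13 classes with enough UMIs, with a median of 1.19 and the interval above 1 in 5 classes. The exception was the endothelial-like class, at 0.832 (0.641 to 1.08). All classes of a library share its preparation and mice, so these are not independent points. For comparison, the ratio of H2-Ab1 to H2-Aa had a median fold of 0.992 over 13 classes, and it was above 1 in 6. Other pairs shifted as well. Cd74 to H2-Ab1 had a median fold of 1.19 and was above 1 in 12 of 15 classes. Its interval was above 1 in 9 and below 1 in 1. Cd74 to H2-Aa had a median fold of 1.09 and was above 1 in 10 of 13 classes. Its interval was above 1 in 6 and below 1 in 1. Within macrophage-like cells the H2-Eb1 fold ran from 1.03 in the Aif1/Cd72-led cluster to 1.25 in the Gpnmb-led one. The antisense gene Gm20513 overlaps H2-Eb1; it had 49.3 and 42.9 CPM in macrophage-like cells, and its part in the ratio was not tested.

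At a finer clustering of the leukocytes, 61 control and 98 haplodeficient cells formed a cluster with Ccl17, Ccl22 and Ccr7 among its leading genes, which was left unnamed. Its class II sum was 43784 CPM in the control and 42344 CPM in the haplodeficient library. Its leading genes also held type 2 conventional dendritic markers (Cd209a, Tnip3 and Mgl2), and the cells it shares with the type 2 class above were not counted. The type 2 conventional dendritic-like clusters of this finer clustering went the other way. They had 42097 and 42154 CPM in the control and 46057 and 52294 CPM in the haplodeficient library. The same clustering separated B-cell-like cells, with 18363 CPM in 28 haplodeficient cells and 3823 CPM in only 3 control cells, from plasmacytoid-dendritic-like cells, with 11393 and 11943 CPM in 10 and 15 cells.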
